A study of Mus musculus with 6 samples.

Results

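A set of 10 genes that govern passage through the G1 phase of the cell cycle were followed in retinae of embryonic day 14.5 mice from which Ronin had been removed: the D cyclins Ccnd1, Ccnd2 and Ccnd3, the kinases Cdk4 and Cdk6, the inhibitors Cdkn1b, Cdkn1c and Cdkn2c, and the pocket proteins Rb1 and Rbl1. They were chosen by name for their role in retinal progenitors, and all 10 have a row among the 23441 genes of the deposited count table. Polyadenylated RNA was sequenced from 3 conditional knockout (CKO) libraries of genotype Chx10-Cre::GFP +/tg; Ronin flox/flox and from 3 control libraries of genotype Ronin flox/flox. Ronin is the transcription factor encoded by Thap11. Both groups carry the floxed alleles on a background labelled as a mix of C57/B6, SJL/B6, 129/Sv and FVB, and the CKO group alone carries the transgene in which Chx10 sequences drive a Cre and GFP fusion in retinal progenitor cells, so effects of the transgene and of the deletion cannot be told apart. The labels do not say whether replicates came from separate animals or pools, and the p-values therefore rest on differences among libraries that may in part be technical.

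In a progenitor, mitogens raise D cyclins, which bind Cdk4 or Cdk6 and phosphorylate the pocket proteins; phosphorylated pocket proteins release E2F factors, and E2F switches on the genes of S phase. The INK4 inhibitor encoded by Cdkn2c binds Cdk4 and Cdk6, whereas the CIP/KIP inhibitors p27 (Cdkn1b) and p57 (Cdkn1c) bind cyclin-CDK complexes and accumulate as cells leave the cycle. Cyclin D1 is the main D cyclin of the mouse embryonic retina, and mice without it have small retinae.

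The libraries held between 23721052 and 28504391 counted reads. Thap11 stood at 11.2, 10.9 and 6.38 CPM in the CKO libraries and at 68.3, 82.0 and 71.6 CPM in the controls, a log2 fold change of -2.96 ± 0.24 (SE; adjusted p = 0.00425, edgeR quasi-likelihood test), where CPM denotes reads of a gene per 1000000 reads after TMM scaling. Control replicate 2 stood apart: its log2 CPM correlated with those of the other controls at Pearson's r of 0.954 and 0.973 across genes, against 0.980 between control replicates 1 and 3. Results that rest on it are given with and without it. All 11 progenitor markers and all 14 neuron markers looked for were measured. Progenitor markers summed to 5303 to 5449 CPM in the CKO and 4857 to 5632 CPM in controls. Neuron markers summed to 3191 to 3242 CPM in the CKO and 3073 to 3135 CPM in controls, without overlap but close. The neuron markers were mixed, with 9 positive and 5 negative log2 fold changes, against 55% negative over all genes tested. Of the 14, 0 had an edgeR adjusted p under 0.05, beside 0.897% of all genes tested. Lens markers summed to 10931, 66.6 and 799.9 CPM in CKO replicates 1, 2 and 3 and to 21.5, 13.3 and 14.3 CPM in the controls, where 1 of the 19, Lgsn, had 0 reads in all 3 controls.

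None of the 10 G1 regulators changed past the threshold in the CKO retina. All 10 passed the filter on low counts, with between 334 and 112995 reads in every library. At an adjusted p under 0.05 over all 14609 genes tested, 0 of the 10 were called by edgeR's quasi-likelihood test, beside 0.897% of all genes tested, and DESeq2's Wald test and limma-voom also called 0 of them, beside 2.23% and 0.821% of all genes. At an unadjusted edgeR p under 0.05 there was 1 of the 10, Cdk6, against 6.58% of all genes. Without control replicate 2 edgeR again called 0 of the 10, beside 1.48% of all genes, and 1, Cdk6, had an unadjusted p under 0.05, beside 9.76%. The log2 fold changes of the 10 ran between -0.67 and 0.17 with a median of 0.04, against a median of -0.03 over all genes tested, and 6 were positive and 4 negative. Without control replicate 2 the median of the 10 was -0.09, with 6 negative. For 8 of the 10 the 95% interval of the log2 fold change lay within a 2-fold difference in either direction. The exceptions were Cdk6 and Cdkn1c, and over all genes tested 77.0% had such an interval. Since each library is of a whole retina, fewer cells of a type and less RNA per cell cannot be told apart.

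**Figure D1:**
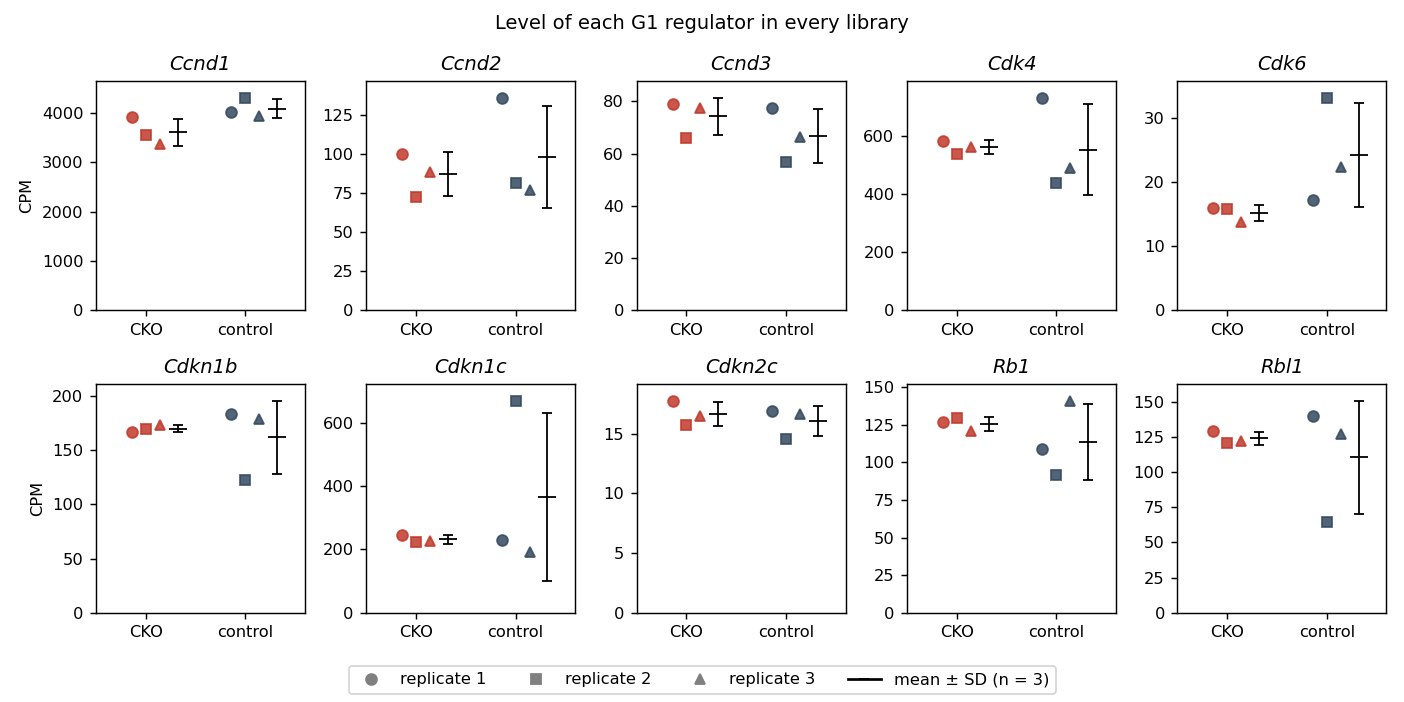
Level of each G1 regulator in CPM (TMM-scaled, linear axis from 0) in 3 CKO and 3 control libraries; symbols mark the replicate number and the bar gives the mean ± SD (n = 3 per group). The CKO libraries lie close together, and control replicate 2 is highest for Cdkn1c and Cdk6 and lowest for Rbl1 and Cdkn1b.

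Among the D cyclins, Ccnd1 was by far the most abundant. It stood at 3912, 3556 and 3371 CPM in the CKO libraries and at 4019, 4305 and 3943 CPM in the controls. Every CKO library was below every control, although CKO replicate 1 and control replicate 3 were nearly level. The mean was 3613 ± 275 CPM in the CKO and 4089 ± 191 CPM in controls (SD, n = 3 each). The log2 fold change was -0.18 ± 0.12 (SE; edgeR adjusted p = 0.921), with a 95% interval of -0.45 to 0.09, which corresponds to a CKO level of 0.731 to 1.07 times that of controls. The separation of the groups depended on scaling: with raw library totals the groups overlapped, as Ccnd1 took 0.396%, 0.368% and 0.347% of the reads in the CKO and 0.404%, 0.396% and 0.394% in controls. Exons of Oraov1 overlap those of Ccnd1 on the opposite strand, and Oraov1 averaged 31.9 ± 1.97 CPM in the CKO and 36.8 ± 6.82 CPM in controls (SD, n = 3 each).

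Ccnd2, the D cyclin of several neural and gonadal lineages, had 100.1, 72.6 and 88.5 CPM in the CKO libraries and 136, 81.4 and 76.6 CPM in controls. The groups overlapped, with control replicate 1 the highest library. Its log2 fold change of -0.17 ± 0.24 (SE; edgeR adjusted p = 0.953) turned to 0.14 without that library. Ccnd3, a D cyclin of differentiating lineages, stood at 79.0, 66.1 and 77.5 CPM in the CKO and at 77.5, 56.7 and 66.2 CPM in controls, again with overlap (log2 fold change 0.15 ± 0.16, SE, and 0.06 ± 0.12 without control replicate 2). Its reads may be affected by Bysl, whose exons overlap those of Ccnd3 on the opposite strand and whose level averaged 57.3 ± 2.02 CPM in the CKO and 50.8 ± 10.3 CPM in controls.

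The mix of the 3 D cyclins in reads was similar in both genotypes. Ccnd1 made up 95.7 ± 0.479% of all D cyclin reads in the CKO and 96.1 ± 1.02% in controls (SD, n = 3 each). Ccnd2 made up 2.30 ± 0.296% in the CKO and 2.30 ± 0.782% in controls. Ccnd3 made up 1.97 ± 0.204% in the CKO and 1.58 ± 0.280% in controls. These are shares of reads, not of molecules, and no test was run on them.

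Of the D cyclin partners, Cdk4 was steady in the CKO and scattered in controls. It stood at 585, 537 and 564 CPM in the CKO libraries and at 731, 438 and 490.4 CPM in controls. The CKO libraries all lay between control replicate 1 and the other two controls. The log2 fold change was 0.02 ± 0.20 (SE; edgeR adjusted p = 0.991), with a 95% interval of -0.44 to 0.49. Exons of Tspan31 overlap those of Cdk4 on the opposite strand, and 29.5% of the 50-base windows of the longest Cdk4 coding transcript also occur in transcripts of other genes. This is not particular to Cdk4, as the share was 27.2% for Ccnd1, 26.6% for Cdkn1c and 21.7% for Ccnd3. For Cdkn1c the windows were shared with Gm44732, an antisense gene on the opposite strand.

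Cdk6, the other D cyclin kinase, had the largest difference of the 10. It stood at 16.0, 15.8 and 13.8 CPM in the CKO libraries and at 17.2, 33.2 and 22.4 CPM in the controls. All 3 CKO libraries were below all 3 controls, also with library totals or DESeq2 size factors as the scaling, but CKO replicate 1 and control replicate 1 were close and control replicate 2 was far above the rest. The log2 fold change was -0.67 ± 0.24 (SE; unadjusted p = 0.0258, adjusted p = 0.608, edgeR quasi-likelihood test), with a 95% interval of -1.24 to -0.11. Without control replicate 2 it was -0.37 ± 0.15 (SE; edgeR adjusted p = 0.506). Groups without overlap and lower in the CKO were seen for 2 of the 10 members, Ccnd1 and Cdk6, beside 6.91% of all genes tested, and no member was without overlap and higher, beside 5.74%. The lowest adjusted p of Cdk6 over all alternatives was 0.174, without control replicate 1.

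**Figure D2:**
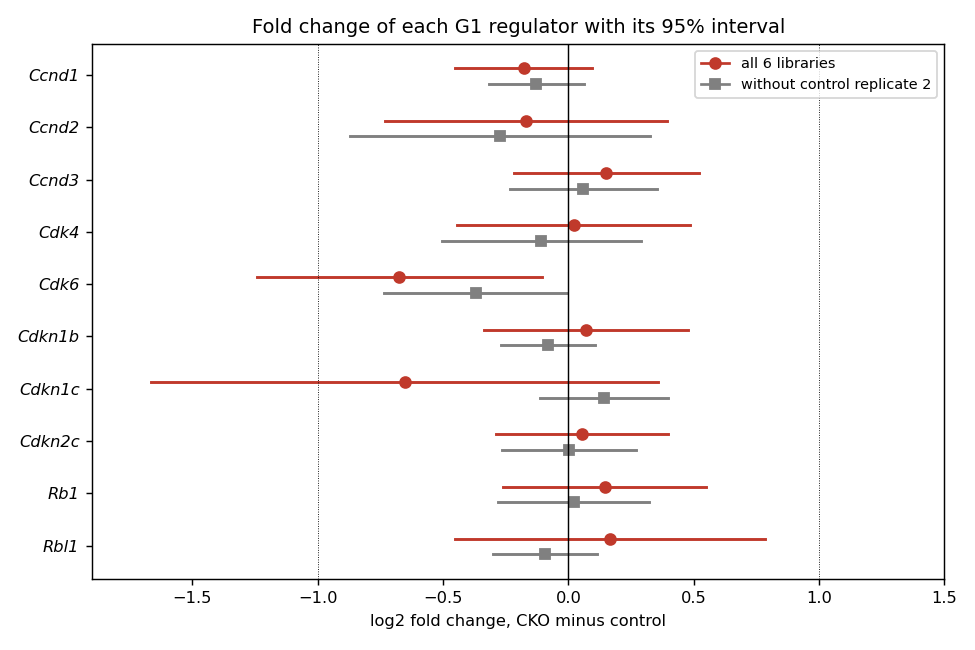
Log2 fold change (CKO minus control) of each G1 regulator with its 95% interval from edgeR's quasi-likelihood fit, for all 6 libraries (circles) and without control replicate 2 (squares); dotted lines mark a 2-fold difference. Cdkn1c lies at -0.65 with all libraries and at 0.14 without that control, and Cdk6 at -0.67 and -0.37.

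The inhibitor Cdkn1c, which encodes p57 and is switched on in progenitors as they exit the cycle, differed between the genotypes mainly through 1 control library. It stood at 246, 223 and 225 CPM in the CKO libraries and at 230.2, 669 and 193 CPM in controls. Control replicate 2 held 3.003 times the level of the other 5 libraries, control replicate 1 lay within the CKO range, and control replicate 3 lay below it. The log2 fold change was -0.65 ± 0.44 (SE; edgeR adjusted p = 0.924) with all libraries and 0.14 ± 0.11 (SE; edgeR adjusted p = 0.736) without control replicate 2, so its direction rests on that library. Lens fibre cells also express Cdkn1c. CKO replicate 1, which had the most lens marker reads, had the highest of the 3 CKO values, as for every member except Cdkn1b and Rb1. CKO replicates 2 and 3 had lens marker sums of 66.6 and 799.9 CPM, with Cdkn1c at 223 and 225 CPM. Control replicate 2, the highest for Cdkn1c, had a lens marker sum of 13.3 CPM. The part of lens RNA in the Cdkn1c level was not tested.

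Cdkn1b, which encodes p27, stood at 167, 169 and 173 CPM in the CKO libraries and at 184, 123 and 179 CPM in controls. The CKO libraries fell between control replicate 2 and the other two controls. The log2 fold change was 0.07 ± 0.17 (SE; edgeR adjusted p = 0.964), and -0.08 ± 0.08 without control replicate 2. Cdkn2c, which encodes the INK4 inhibitor p18, varied least over the 6 libraries among the inhibitors. It had 17.8, 15.7 and 16.4 CPM in the CKO and 16.9, 14.6 and 16.6 CPM in controls. The groups overlapped, with a log2 fold change of 0.05 ± 0.15 (SE) and a 95% interval of -0.29 to 0.40, and the log2 fold change was 0.0021 without control replicate 2 and 0.0045 without CKO replicate 1.

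The pocket proteins showed no called difference either. Rb1, the retinoblastoma gene, stood at 127, 129 and 121 CPM in the CKO libraries and at 109, 91.2 and 141 CPM in controls. The CKO libraries lay between control replicate 3 and the other controls. Its log2 fold change was 0.14 ± 0.18 (SE; edgeR adjusted p = 0.946), with a 95% interval of -0.26 to 0.55. The value rested on single controls: it was 0.02 ± 0.13 (SE) without control replicate 2 and 0.36 ± 0.14 (SE; unadjusted p = 0.0427, adjusted p = 0.512, edgeR) without control replicate 3. Rbl1, which encodes p107 and is itself an E2F target, stood at 129, 121 and 122 CPM in the CKO and at 139.7, 64.5 and 127 CPM in controls. Control replicate 2 held 0.506 times the level of the other 5 libraries, the opposite of Cdkn1c. The log2 fold change of Rbl1 was 0.17 ± 0.27 (SE; edgeR adjusted p = 0.957) with all libraries and -0.09 ± 0.09 without control replicate 2.

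Levels of different genes were set side by side per kilobase of exon, with exon lengths from GENCODE M21. In the CKO libraries Ccnd1 was highest at 767 ± 58.4 CPM per kilobase (SD, n = 3 for each gene), followed by Cdk4 at 173 ± 7.34, Cdkn1c at 113 ± 6.35, Cdkn1b at 37.3 ± 0.751, Rb1 at 20.9 ± 0.744, Rbl1 at 20.7 ± 0.773, Ccnd2 at 9.25 ± 1.47, Ccnd3 at 8.46 ± 0.806, Cdkn2c at 6.19 ± 0.386 and Cdk6 at 1.09 ± 0.0873 CPM per kilobase. Rb1 and Rbl1, and Ccnd2 and Ccnd3, were neighbours in this order whose CKO ranges overlapped. The control means gave the same order except that Cdkn1c, at 179 ± 129.9, stood above Cdk4, at 170.3 ± 48.1 CPM per kilobase, with overlapping ranges. That exception rested on control replicate 2, with 328 for Cdkn1c and 135 for Cdk4. In control replicates 1 and 3 Cdkn1c, at 113 and 94.6, was below Cdk4, at 225 and 151, as in the CKO. In controls the ranges of Rbl1 and Ccnd2 overlapped as well. These lengths join all annotated isoforms of another genome build than the counts, which lowers the value of genes with rarely used exons. For Ccnd3 the joined length was 8775 bases, against 2113 in its longest coding transcript, and for Cdk6 it was 13989 against 11525. The place of Ccnd3 in this order therefore depends on the length used.

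**Figure D3:**
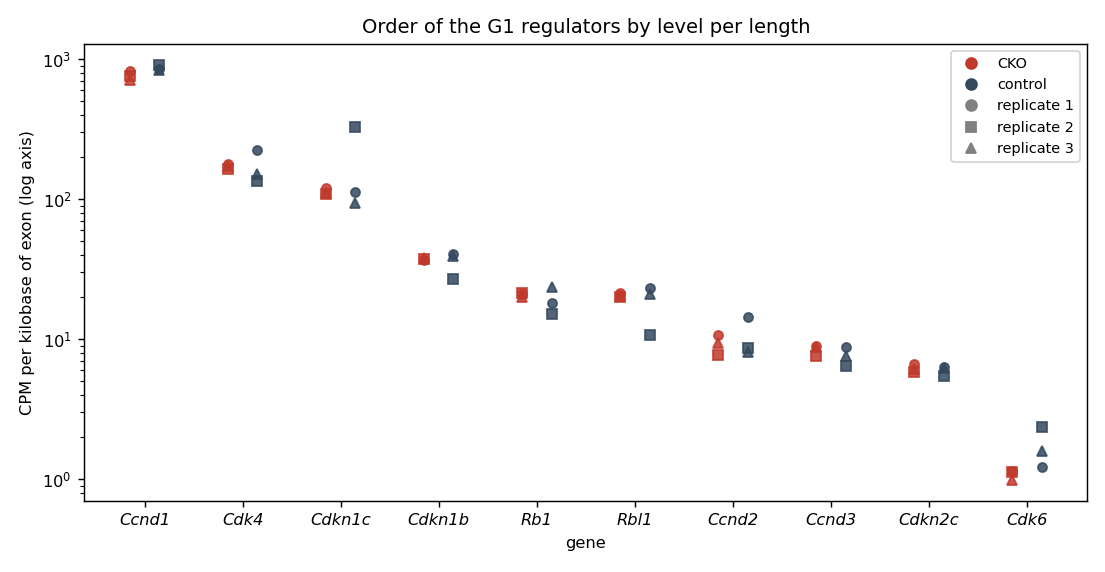
Level of each G1 regulator in CPM per kilobase of exon (log axis), in 3 CKO and 3 control libraries, ordered by the CKO mean. Ccnd1 stands about 4.44 times above Cdk4 in the CKO, and Cdk6 is the lowest gene in both groups.

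The members were more even among CKO libraries than among controls, as were most genes tested, so this is not particular to them. The median SD of log2 CPM over the 10 was 0.084 in the CKO and 0.357 in controls, beside 0.098 in the CKO and 0.326 in controls over all genes tested. For 9 of the 10 the SD was larger in controls, the exception being Ccnd1, and over all genes this held for 12780 of 14609. Without control replicate 2 the median control SD of the members was 0.171, beside 0.194 over all genes tested. That library held the highest or lowest value for 9 of the 10, against 68.9% of all genes tested. Against the other 5 libraries it was 1.97-fold higher for Cdk6 and 3.003-fold higher for Cdkn1c, and lower for Cdkn1b at 0.704, Rb1 at 0.731 and Cdk4 at 0.761 times their level.

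**Figure D4:**
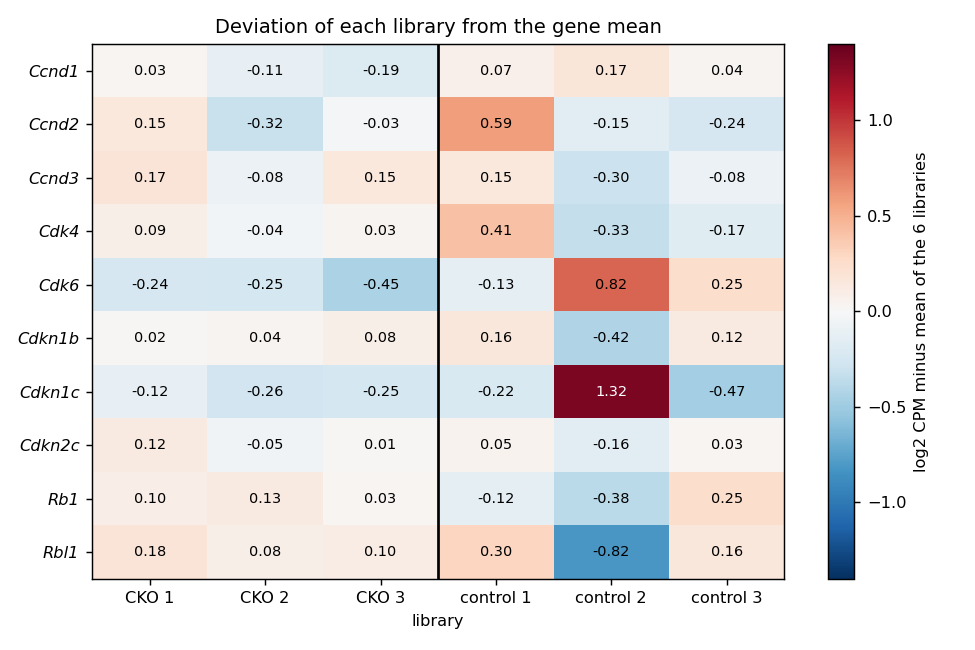
Log2 CPM of each G1 regulator in every library after subtraction of the gene's mean over the 6 libraries (colour and printed value; CKO left of the line, controls right of it). Control replicate 2 reads 1.32 for Cdkn1c and 0.82 for Cdk6 but -0.82 for Rbl1, and CKO values stay between -0.45 and 0.18.

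The genes whose profile over the 6 libraries was most like that of a member were found by the root mean square difference of centred log2 CPM among 12714 genes whose mean log2 CPM reached 1. For Cdk6 these were Cenpf (0.059), a kinetochore protein gene of dividing cells, Astn2 (0.062) and Map1b (0.064), a microtubule protein gene of neurons. For Cdkn1c they were Ccdc85b (0.052), Hes6 (0.076), a basic helix-loop-helix gene of neurogenic precursors, and Nudc (0.077). Hes6 had 349, 322 and 315 CPM in the CKO and 345, 918 and 311 CPM in controls, so that control replicate 2 was high for both genes. For Ccnd1, which varied little, they were Them6 (0.026), Ldoc1l (0.034) and Katnal2 (0.034). None of these 9 genes was called between the genotypes, which follows from their likeness to members that were not called and is no separate result.

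The wider G1 network was examined through 38 other genes, of which 35 were tested: cyclin E and its kinase, other CDK inhibitors, E2F and DP factors, the third pocket protein with the MuvB core, G1 protein turnover and Myc genes. None of the 35 was called by edgeR or limma-voom, beside 0.897% and 0.821% of all genes tested, and 1 (Cdkn1a) was called by DESeq2, beside 2.23%. The same gene was the 1 of 35 with an unadjusted edgeR p under 0.05, beside 6.58% of all genes. The median log2 fold change of the 35 was -0.00416, with 17 positive and 18 negative, against 55% negative over all genes tested. Without control replicate 2 their median was -0.07, with 22 of 35 negative, against 51.4% negative over all genes tested. In that fit 3 of the 35 had an unadjusted edgeR p under 0.05, beside 9.76% of all genes, and 0 were called, beside 1.48%. Of the other INK4 inhibitor genes, Cdkn2d averaged 36.8 ± 2.20 CPM in the CKO and 44.1 ± 7.99 CPM in controls (SD, n = 3 each; log2 fold change -0.26), Cdkn2a and Cdkn2b were below the count filter, and Mycl1, a Myc gene, had no row.

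The largest differences among these were in Cdkn1a, Rbl2, Myc and Cdk2. Groups without overlap and higher in the CKO were seen for 2 of the 35, Cdkn1a and Rbl2, beside 5.74% of all genes tested. For 1 of the 35, E2f4, they were without overlap and lower, beside 6.91%, so both counts are near the shares over all genes. Cdkn1a, which encodes p21 and is a p53 target, had 13.4, 14.2 and 13.6 CPM in the CKO and 8.79, 9.38 and 9.29 CPM in controls. The groups did not overlap, and the log2 fold change was 0.58 ± 0.15 (SE; edgeR adjusted p = 0.226, with 0.0126 by DESeq2 and a range of 0.0126 to 0.99988 over the alternatives). Rbl2, the gene of the third pocket protein p130, stood at 44.9, 42.8 and 45.1 CPM in the CKO and at 37.2, 27.7 and 40.7 CPM in controls, also without overlap (log2 fold change 0.33 ± 0.17, SE; edgeR adjusted p = 0.873). Control replicate 2 was its lowest library, and without it the log2 fold change was 0.20 ± 0.09 (SE). Cdk2, the cyclin E kinase, had 87.7, 87.8 and 93.0 CPM in the CKO and 78.6, 51.6 and 93.3 CPM in controls. Its groups overlapped, and the log2 fold change of 0.26 ± 0.21 (SE) was 0.07 ± 0.11 without control replicate 2 and 0.49 ± 0.21 without control replicate 3. Myc was at 8.71 ± 0.313 CPM in the CKO and 10.5 ± 1.78 CPM in controls (SD, n = 3 each), a log2 fold change of -0.27 ± 0.18 (SE). The value was -0.11 without control replicate 3 and -0.38 ± 0.14 (SE; unadjusted p = 0.032, adjusted p = 0.427, edgeR) without control replicate 2.

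The E2F and DP genes lay close to no difference, with log2 fold changes of -0.20 to 0.19 and 5 of 10 on either side of 0. Downstream, 1 of 22 E2F target genes of S phase was called, Prim1, the catalytic subunit of DNA primase, beside 0.897% of all genes tested. The median of the list was -0.06, with 8 positive and 14 negative, against 55% negative over all genes. At an unadjusted edgeR p under 0.05 there were 2 of the 22, beside 6.58% of all genes. The other was Cdc6, which was higher in the CKO (log2 fold change 0.46 ± 0.14, SE; unadjusted p = 0.0113, adjusted p = 0.405, edgeR). Prim1 fell to 34.4, 31.6 and 29.8 CPM in the CKO, against 109, 79.4 and 92.0 CPM in controls (log2 fold change -1.55 ± 0.16, SE; edgeR adjusted p = 0.00722, and 0.0671 without CKO replicate 3 or 0.0637 without control replicate 3). Upstream, none of 15 readouts of Hedgehog, Wnt, Notch and FGF signalling, which feed into D cyclin expression, was called by edgeR, DESeq2 or limma-voom. Of the 15, 2 had an unadjusted edgeR p under 0.05, beside 6.58% of all genes tested: Hhip (log2 fold change -0.43) and Ptch1 (-0.38). The median log2 fold change of the 15 was -0.11 with 11 negative, against a median of -0.03 and 55% negative over all genes. Without control replicate 2 their median was -0.01, but 10 of the 15 were negative, against 51.4% of all genes. In that fit 3 of the 15 had an unadjusted edgeR p under 0.05, beside 9.76% of all genes.

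Promoters were searched for the motif known for Ronin, written as ACTACA, any 2 bases and TCCC, on either strand, in RefSeq sequences of 300 bases (250 before to 50 after a start site, GRCm38.p6). The motif is in 1.81% of all 32851 promoters. Of the 103 genes called lower in the CKO (0.705% of all genes tested), 83 had a promoter in the table and 63 of these (75.9%) held it. Of the 28 called higher (0.192%), 19 had a promoter and 7 (36.8%) held it, against 403 of 10602 (3.80%) genes tested and not called. These shares are descriptions. The table held 8 promoters of 6 members (Ccnd3, Cdk4, Cdk6, Cdkn1b, Cdkn2c and Rbl1), and 0 of the 6 held the motif. Among the other lists it was found for Rbl2 of 30 other G1 genes and for Prim1 of 19 S-phase genes with a promoter. The E2F motifs TTTCCCGC and TTTGGCGC, in 1.07% and 0.514% of all promoters, and the cell cycle homology region TTTGAA, in 17.9%, were in none of the 8 member promoters on either strand. Only these exact letters were searched. At such shares the 2 E2F strings would seldom be met in 8 promoters, so their absence does not show that E2F sites are missing. The CCAAT box, in 37.4% of all promoters, was in those of Ccnd3, Cdkn1b and Cdkn2c. The 250 bases before the start are shown for Prim1, the called gene downstream, with the Ronin motif at -83 in capitals, for Cdk6, the member with the largest difference, with no motif, and for Cdkn1b with its CCAAT boxes at -161 and -35 in capitals. All 3 are on the plus strand, at chr10:128014965-128015214, chr5:3343643-3343892 and chr6:134920151-134920400.
Prim1: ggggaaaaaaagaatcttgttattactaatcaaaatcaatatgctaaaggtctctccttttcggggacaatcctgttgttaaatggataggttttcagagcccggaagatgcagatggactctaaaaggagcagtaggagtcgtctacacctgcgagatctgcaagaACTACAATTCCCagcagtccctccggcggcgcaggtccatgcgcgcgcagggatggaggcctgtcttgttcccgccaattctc
Cdk6: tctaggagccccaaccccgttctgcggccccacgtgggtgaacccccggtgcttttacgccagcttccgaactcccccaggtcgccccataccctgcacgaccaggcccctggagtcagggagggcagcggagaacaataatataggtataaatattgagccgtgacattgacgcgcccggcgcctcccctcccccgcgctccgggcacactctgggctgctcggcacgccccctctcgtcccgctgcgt
Cdkn1b: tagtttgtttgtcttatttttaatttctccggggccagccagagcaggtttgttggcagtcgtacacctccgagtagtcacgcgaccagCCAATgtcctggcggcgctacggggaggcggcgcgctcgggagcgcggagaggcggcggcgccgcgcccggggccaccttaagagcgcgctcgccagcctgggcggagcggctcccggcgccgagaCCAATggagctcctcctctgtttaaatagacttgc
These letters say nothing of whether Ronin or any other factor binds there in the retina.

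Other tissues could carry transcripts of the same genes, since D cyclins and CIP/KIP inhibitors are widely expressed. All 17 lens markers tested had positive log2 fold changes. Of these 0 were called by edgeR and 0 by limma-voom, beside 0.897% and 0.821% of all genes tested. DESeq2 called 15, beside 2.23% of all genes. At an unadjusted edgeR p under 0.05 there were 16 of the 17, beside 6.58%. Endothelial markers summed to 249 to 269 CPM in the CKO and 283 to 339.9 CPM in controls. Kdr alone held 232 to 243 CPM in the CKO and 247 to 306 CPM in controls, most of each sum. Of the 8 endothelial markers 7 were negative, against 55% of all genes tested. By edgeR and limma-voom 0 of them were called, and by DESeq2 1, beside the same shares of all genes. At an unadjusted edgeR p under 0.05 there were 2 of the 8, beside 6.58% of all genes. Pigment epithelium markers summed to 14.7 to 20.3 CPM in the CKO and 19.2 to 38.3 CPM in controls, periocular mesenchyme markers to 25.3 to 52.6 CPM in the CKO and 39.0 to 80.5 CPM in controls, microglia and macrophage markers to 38.0 to 49.2 CPM in the CKO and 35.8 to 49.1 CPM in controls, and erythroid markers to 3.43 to 11.04 CPM in the CKO and 6.01 to 14.9 CPM in controls. The erythroid genes Hba-a2, Hbb-b1 and Hbb-b2 had 0 reads in all 6 libraries. The part of these tissues in the levels of the 10 members was not tested.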

How the data were processed

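The 10 genes and the lists were chosen with earlier results of these data known. The authors deposited 1 table of raw read counts per gene symbol. The submitters' processing notes name build mm9, HTSeq 0.5.4p3, BWA 0.7.6a-r433 and DESeq 2.13, with no roles; the sources used here give neither annotation nor strand setting, so overlapping genes such as Bysl, Tspan31, Oraov1 and Rcbtb2 can share or lose reads. The table ends with 4 lines of a merge conflict or blank text, which were skipped, and a repeated row of 1 gene was dropped. No library pair agreed within sampling noise (lowest chi-square per degree of freedom 5.94).

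With edgeR 4.0.16 in R 4.3.3, filterByExpr (minimum count 10) left 14609 genes, libraries were TMM-scaled, and genotypes were compared by the quasi-likelihood F test with genotype alone, Benjamini-Hochberg over all genes tested, threshold 0.05. Each SE was the size of the log2 fold change over the root of its F statistic. Log2 CPM used a prior count of 2. Alternatives were DESeq2 1.42.0, limma-voom (limma 3.58.1), other scalings and filters, a threshold of 0.01, a replicate block and omission of libraries. Named genes were the 10 members, called genes of the lists, the 4 largest differences among other G1 genes, and the 3 nearest profiles of 3 members. The 50-base windows and exon lengths came from GENCODE M21 (GRCm38).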

Additional observations from a re-analysis of the deposited data

How the results depend on the processing

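The count of called members was 0 under all 15 alternatives, and no log2 fold change of a member passed the threshold under any. Of the 150 member values under alternatives, 138 kept their direction. The other 12 changed sign in Ccnd2 (range over single-library omissions -0.29 to 0.14, positive without control replicate 1), Cdk4 (-0.11 to 0.28, negative without CKO replicate 1, control replicate 2 or control replicate 3), Cdkn1b (-0.081 to 0.18), Cdkn1c (-0.92 to 0.14) and Rbl1 (-0.094 to 0.37), each of these 3 turning on omission of control replicate 2, and in Cdkn2c, which turned only with the pair that follows. With CKO replicate 1 and control replicate 2 both left out, the log2 fold change was -0.13 for Cdk4, -0.065 for Cdkn1b, 0.099 for Cdkn1c, -0.045 for Cdkn2c and -0.12 for Rbl1. The count over all genes, 131, was 326 with DESeq2, 39 at a threshold of 0.01, 50 with that pair left out, and 16 to 219 without single libraries (CKO replicate 3 gave the 16, control replicate 2 the 219, control replicate 3 left 33, and CKO replicates 1 and 2 left 41 and 53). Other G1 genes gave 1 call with DESeq2, and the S-phase list 0 to 1 without single libraries. The Ccnd1 share of D cyclin reads differed by -0.39 percentage points (CKO minus control), and by -0.97 to -0.00865 without single libraries. The median member SD ran from 0.052 to 0.092 in the CKO and from 0.171 to 0.466 in controls without single libraries. The cause of these shifts was not tested. Deviations from the group mean correlated at 0.336, 0.107 and -0.00775 between same-numbered libraries 1, 2 and 3. By this measure CKO replicate 1 was most like control replicate 1. CKO replicate 2 was most like control replicate 3, and CKO replicate 3 most like control replicate 2. The numbers were therefore not taken as pairs. With the replicate block 0 members, 0 other G1 genes, 1 S-phase gene and 153 genes in all were called, with log2 fold changes of -0.18 for Ccnd1 and -0.41 for Cdkn1c.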
